A study of Mus musculus with 38 samples.

Results

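Genes of the erythroid lineage were followed in stromal vascular cells of mouse epididymal fat: the adult α-globin gene Hba-a1, the adult β-globin genes Hbb-b1 and Hbb-b2, the erythroid haem synthesis gene Alas2 and the red cell membrane gene Slc4a1. Members were all non-control array probes that carry one of these 5 gene names, and 7 of the 40628 probes on the array did, covering 4 of the 5 genes (1 probe each for Hba-a1, Alas2 and Slc4a1 and 4 for Hbb-b1). No probe carried the name Hbb-b2, but the transcript records of 2 of the 4 Hbb-b1 probes include one that RefSeq assigns to Hbb-b2. All 4 Hbb-b1 probes were designed on a record that RefSeq now assigns to Hbb-bt, the gene of C57BL/6J mice at this place, and the Hba-a1 probe also lists a record of its near-identical neighbour Hba-a2. The values of Hbb-b1 and Hba-a1 are therefore those of adult β-globin and adult α-globin, and the copies of each cannot be told apart.

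Haemoglobin of adult red cells is built from α- and β-globin chains, each of which holds a haem. Alas2 encodes the enzyme of the committed step of haem synthesis in erythroid cells, and Slc4a1 encodes band 3, the anion exchanger that is the main protein of the red cell membrane. Circulating red cells have no nucleus but reticulocytes still hold globin and Alas2 messages, while nucleated precursors in marrow and spleen also hold messages of regulators such as Gata1 and Klf1 and of membrane proteins such as Kel. Stromal vascular preparations are made from tissue that contains vessels, and red cells are usually lysed or washed away.

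The mice were C57BL/6J, divided into diets after weaning at the age of 3 to 4 weeks, and the labels call the cells infiltrating macrophages. LFC animals had a normal diet with 10% of calories from fat (10 arrays). HFC animals had a diet high in fat and sucrose with 60% of calories from fat (10 arrays). HF5, HF20 and HF75 animals had that high fat diet plus 5, 20 or 75 µg of the botanical formulation KAL-1 (6 arrays each). Days 6, 10 and 14 (D6, D10, D14) and then W0, W3, W6, W9, W12, W15 and W18 were sampled, the study's methods counting weeks from day 14, and a single array was analysed for a diet at each of them, the formulation groups entering at W3. Per the labels 5 animals of a group were killed at each interval, and the series text speaks of 3 biological replicates, but no source used here states which animals an array stands for. In comparisons of diets and doses and in trends, the p-values therefore measure the spread between arrays of different time points. In the test of differences between weeks they measure the spread between arrays of different diets in the same week. Each array is named by its diet and time point. In 4 arrays the diet label contradicts the title on the dose (at W15 as well as W18, for HF5 and for HF20), and the title was followed.

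A level is given as log2 of the processed signal minus log2 of the 75th percentile of the same array, so 0 marks a spot as bright as that percentile. Array brightness (the 75th percentile) ran from 25.8 to 1983 scanner units, and 40.1% to 91.6% of spots were well above background. HF5 W12 was the dimmest array and HF75 W3 the next, at 88.4 scanner units. HFC W12 and HF75 W12 had 4850 and 6257 spots marked as outliers, against at most 922 on any other array. Ucp1, the uncoupling protein of brown fat, was high on HF5 W12 (6.93), LFC D10 (5.11) and LFC D6 (3.83), beside a median of -4.62 and at most -2.46 on any other array. Tcf21, a factor of visceral fat stroma, had a median of 0.03 and was low on LFC D6 (-6.42) and LFC D10 (-6.77). It was also low on HF20 W6 (-8.56), HF5 W6 (-6.28), HF75 W6 (-5.90) and HFC W6 (-4.36), with LFC W6 at -1.79. For the members, HFC minus LFC, trends and correlations are given with and without D6 and D10 or their LFC arrays. The Slc4a1 difference of HF5 is also given without HF5 W12. Macrophage markers were present on all arrays: the mean level of the 12 macrophage genes ran from 0.12 (HF20 W12) to 3.49 (HF5 W9). The markers Csf1r and Emr1 were well above background on all 38 arrays, and Itgam on 35. Genes of other cells were as high: the list means had a median over arrays of 2.35 (adipocyte) and 2.01 (endothelial), beside 2.07 (macrophage).

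The Hba-a1 probe and 3 of the 4 Hbb-b1 probes are shown because saturation of the scanner, which limits the globin levels, differed between probes of the same message. Sequences are as the array files give them, from 5′ to 3′. The capitals mark the stretch of 29 bases that P374476 and P260346 have in common, so these are not independent readings.
Hba-a1: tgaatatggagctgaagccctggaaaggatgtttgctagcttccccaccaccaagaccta
Hbb-b1 P374468: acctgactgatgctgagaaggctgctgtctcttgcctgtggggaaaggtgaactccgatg
Hbb-b1 P374476: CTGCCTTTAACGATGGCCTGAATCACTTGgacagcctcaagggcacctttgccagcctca
Hbb-b1 P260346: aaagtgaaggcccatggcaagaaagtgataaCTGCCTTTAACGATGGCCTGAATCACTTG

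The 250 bases before the transcription start of the genes are shown because the members moved together over the arrays (given further on). They are RefSeq sequences of build GRCm38.p6, from 5′ to 3′ on the strand of the gene, and 3 of the 4 genes had an entry. The Hba-a1 stretch is chr11:32283422-32283671 (+ strand), that of Hbb-bt is chr7:103813924-103814173 (- strand) and that of Alas2 is chrX:150547167-150547416 (+ strand). Capitals mark matches on either strand to 3 short motifs. GATAA is the core of the motif bound by GATA factors. The letters CACCC are bound by KLF factors. The CCAAT box is bound by factors of that name, and no match overlaps another.
Hba-a1: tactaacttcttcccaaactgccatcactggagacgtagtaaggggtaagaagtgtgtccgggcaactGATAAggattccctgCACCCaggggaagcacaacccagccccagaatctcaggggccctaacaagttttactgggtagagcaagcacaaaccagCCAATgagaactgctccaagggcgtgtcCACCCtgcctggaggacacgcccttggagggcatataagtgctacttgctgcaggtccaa
Hbb-bt: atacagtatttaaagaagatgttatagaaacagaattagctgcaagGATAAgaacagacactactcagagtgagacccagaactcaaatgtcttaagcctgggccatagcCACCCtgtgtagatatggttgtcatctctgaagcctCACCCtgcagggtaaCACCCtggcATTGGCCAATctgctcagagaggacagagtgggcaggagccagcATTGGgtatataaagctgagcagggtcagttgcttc
Alas2: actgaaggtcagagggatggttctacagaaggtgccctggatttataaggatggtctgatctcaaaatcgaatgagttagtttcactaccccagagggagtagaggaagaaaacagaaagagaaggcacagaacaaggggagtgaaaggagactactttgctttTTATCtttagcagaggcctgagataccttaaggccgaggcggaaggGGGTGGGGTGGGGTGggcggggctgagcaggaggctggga

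Each of the 3 stretches held 1 GATAA match. Hba-a1 held 2 CACCC matches, and Hbb-bt and Alas2 held 3 each. CCAAT was found once in Hba-a1, 3 times in Hbb-bt and in no place (0 matches) in Alas2. Of all 32851 promoters in the RefSeq table, 22.6% held GATAA in these bases, 52.0% CACCC, 33.8% CCAAT and 10.1% both GATAA and CACCC. A match is a description of the letters and not of binding.

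Globin messages were among the brightest on the arrays, Alas2 was a little above the 75th percentile, and Slc4a1 was below it. Hba-a1 ran from 2.40 (HFC W15) over a median of 5.29 to 8.11 (LFC D6). Among the Hbb-b1 probes, P374468 ran from -0.18 (HFC W15) over a median of 3.04 to 8.18 (LFC D6). Alas2 ran from -2.10 (HFC W15) over a median of 1.002 to 5.97 (LFC D10). Slc4a1 ran from -5.53 (HF75 W3) over a median of -2.36 to 2.26 (HF20 W18), was well above background on 36 arrays, and had no value on HF75 W12, where its spot was an outlier. HFC W15 was the lowest of all arrays for 6 of the 7 probes, and LFC D6 or LFC D10 the highest for 6 of the 7, the exception in both cases being Slc4a1.

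Saturated spots are lower bounds, and 57 of the 266 member values were saturated, on 20 of the 38 arrays. Alas2 and Slc4a1 were saturated on 0 arrays, so their range is not cut at the top. The Hba-a1 probe was saturated on 13 arrays. The Hbb-b1 probes were saturated on 3 (P374468), 8 (P260346), 13 (P213909) and 20 (P374476) arrays, and the SD of their levels over the 38 arrays fell in the same order, at 2.06, 1.46, 1.39 and 1.09 log2. The spread of the same message was thus widest on the least saturated probe. Saturated spots lay at levels between 4.98 and 8.21, because the ceiling is fixed in scanner units and so lies at a lower level on a brighter array. Levels on single arrays are therefore given for P374468. P374476, the brightest on average and the most often saturated, represents the gene in counts over genes, correlations and alternative settings, and Hbb-b1 without a probe number means P374476.

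**Figure D1:**
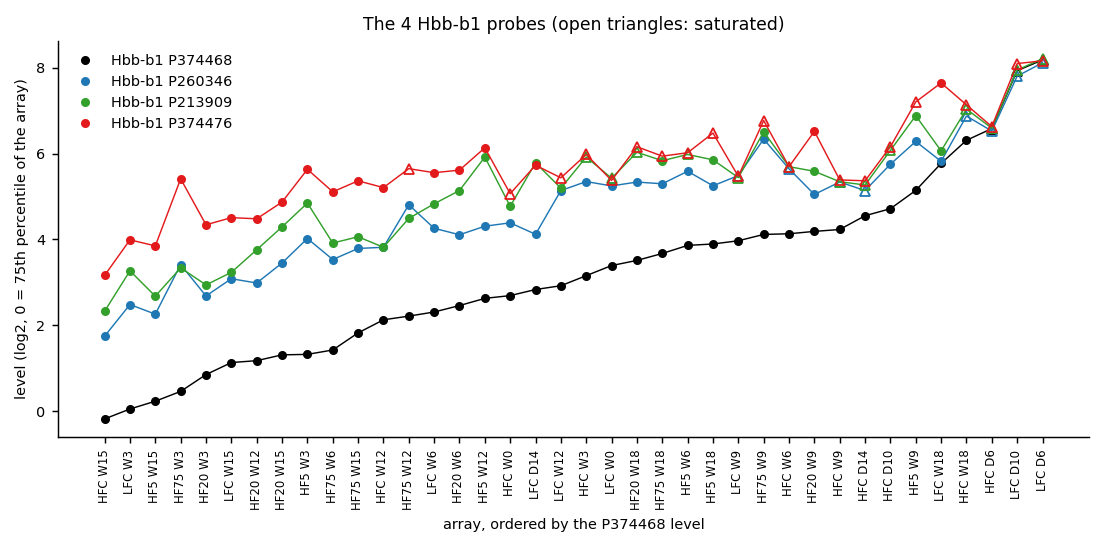
Level (log2, 0 = 75th percentile of the array) of the 4 Hbb-b1 probes on each of the 38 arrays, ordered along the x axis by the P374468 level, with saturated spots as open triangles. P374468 spans -0.18 to 8.18 with 3 saturated spots, while P374476 spans 3.16 to 8.16 with 20, and the 4 lines meet where all are saturated.

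Whether the high fat diet changed these genes was asked by comparing HFC with LFC over the 10 time points, with time point as a block. All 7 member probes were bright enough to be tested in every comparison, none passed this test, and neither did any other probe. On Hba-a1, LFC ran from 2.67 (W3) over a median of 5.37 to 8.11 (D6), and HFC from 2.40 (W15) over 5.53 to 6.93 (W18). The 2 diets overlapped over most of this range, and HFC was the higher at 4 of 10 time points. The fitted HFC minus LFC difference of Hba-a1 was -0.13 (SE 0.42, 95% interval -1.05 to 0.80, limma, adjusted p = 0.912). At 8 of the 10 time points the Hba-a1 spot of 1 or both arrays was saturated, and with saturated spots left out the difference was 1.01 (adjusted p = 0.759, limma). Of the 31029 probes tested 0 passed, so that percent called was 0%, and 2818 had an unadjusted p under 0.05.

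Alas2, the haem synthesis enzyme, ran from -1.26 over 0.92 to 5.97 in LFC and from -2.10 over 1.72 to 4.43 in HFC, with HFC the higher at 5 of 10 time points. Its difference was -0.24 (SE 0.49, 95% interval -1.32 to 0.84, limma, adjusted p = 0.853). Slc4a1, the band 3 gene, ran from -5.01 over -2.22 to 1.74 in LFC and from -4.91 over -1.09 to 0.05 in HFC, with HFC the higher at 6 of 10. Its difference was 0.28 (SE 0.65, 95% interval -1.15 to 1.70, limma, adjusted p = 0.870). The 4 Hbb-b1 probes gave differences from -0.42 to -0.02, with adjusted p of 0.629 or more (limma). The interval of Slc4a1 holds changes of 1 log2 unit in either direction and that of Alas2 a fall of that size, so differences within these bounds were not detectable with 10 arrays a diet.

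The arrays of single time points differed by much more than these means. At W3, HFC lay above LFC by 3.02 (Hba-a1), 3.10 (Hbb-b1 P374468), 1.40 (Alas2) and 4.42 (Slc4a1). At D10 the order was the opposite, with differences of -2.05, -3.21, -3.76 and -3.11, where the Hba-a1 spots of both arrays and the P374468 spot of LFC were saturated. All 4 probes were on the HFC side at D14, W3, W6 and W18 and on the LFC side at D6, D10, W0 and W15. Each of these is 1 array against 1 array. Day 14 alone was sampled under both a day and a week name, D14 and W0, and there the sides were opposite. In the same order of probes, the differences were 0.34, 1.72, 0.53 and 0.82 at D14. At W0 they were -0.37, -0.70, -0.68 and -2.07. No other time point has a replicate check.

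**Figure D2:**
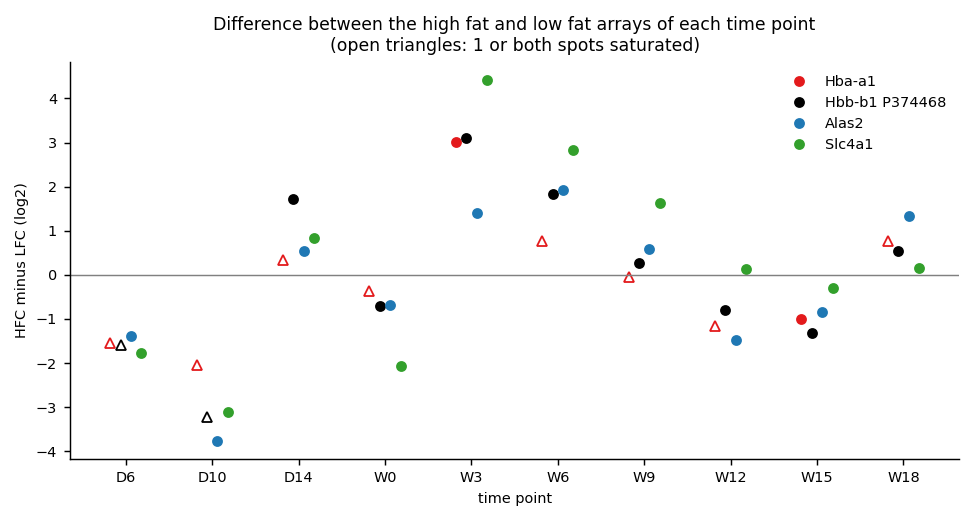
HFC minus LFC (log2) at each of the 10 time points for Hba-a1, Hbb-b1 P374468, Alas2 and Slc4a1, 1 array per diet, with open triangles where 1 or both spots were saturated. The 4 probes lie on the same side of 0 at 8 of the 10 time points, from -3.76 (Alas2, D10) to 4.42 (Slc4a1, W3), and no side is kept over time.

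Without D6 and D10, the times of 2 of the arrays high in Ucp1, HFC minus LFC was 0.29 for Hba-a1, 0.35 for Alas2, 0.96 for Slc4a1 and -0.09 for Hbb-b1 P374476, with adjusted p of 0.833 or more (limma). The mean difference of the other Hbb-b1 probes was 0.58 (P374468), 0.33 (P260346) and 0.12 (P213909) over these 8 time points. The sign thus turned for 5 of the 7 probes, all but P374476 and Slc4a1. No change of HFC minus LFC with elapsed day was called for any member (slopes per week from 0.01 to 0.07, adjusted p of 0.981 or more, limma; 0% of 31029 probes called, 1357 with an unadjusted p under 0.05).

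Genes of 5 related lists, chosen for what they are known to do, were read in the same comparison. Of their 62 genes on the array 53 were tested, and 0 passed in either direction. Eraf, the chaperone of free α-globin (now Ahsp), differed by 0.50 (SE 0.77). The transferrin receptor Tfrc differed by -0.14 (SE 0.18), the carbonic anhydrase Car2 by 0.02 (SE 0.28), Fech, which inserts iron to form haem, by -0.39 (SE 0.24), and the housekeeping form Alas1 by -0.32 (SE 0.17). The regulators Gata1, Klf1 and Epor (the erythropoietin receptor) differed by 0.26 (SE 0.33), -0.29 (SE 0.53) and -0.46 (SE 0.32), and the skeletal anchor Ank1 by 1.19 (SE 0.66). The median over the 4 member genes was -0.18, beside 0.01 over all probes. Medians of the lists ran from -0.17 (haem synthesis, 11 genes) to 0.26 (regulators, 11 genes). Among genes of macrophages that take up red cells, haem oxygenase Hmox1 differed by 0.23 (SE 0.54) and the iron exporter Slc40a1 by 0.06 (SE 0.22), and 0 of 13 passed.

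Whether the formulation changed the members was asked over W3 to W18, with week as a block and HFC as the control of all 3 doses, so that the 3 comparisons share their control arrays. No member probe passed at any dose, beside 0% of the 33711 probes tested in each comparison (unadjusted p under 0.05 in 1594, 516 and 659 probes for HF5, HF20 and HF75). On Hba-a1, HFC ran from 2.40 over 5.53 to 6.93 in these weeks, HF5 from 2.75 over 5.75 to 6.54, HF20 from 3.03 over 4.35 to 5.57 and HF75 from 2.83 over 4.73 to 6.58. All 4 groups overlapped. The fitted differences from HFC were 0.23 for HF5 (95% interval -0.86 to 1.32), -0.79 for HF20 (-1.88 to 0.30) and -0.34 for HF75 (-1.43 to 0.75), with adjusted p of 0.9995 or more (limma).

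For Hbb-b1 P374468, the least saturated globin probe, HFC ran from -0.18 over 3.65 to 6.31, HF5 from 0.23 over 3.25 to 5.14, HF20 from 0.85 over 1.89 to 4.19 and HF75 from 0.46 over 2.02 to 4.12. The differences from HFC were -0.45 (HF5, 95% interval -1.56 to 0.66), -1.05 (HF20, -2.15 to 0.06) and -1.01 (HF75, -2.12 to 0.10). The other Hbb-b1 probes ran from -0.86 to 0.46 over the 3 doses, and the most saturated one, P374476, gave 0.46, -0.10 and 0.28. HF20 lay below HFC in 5 of 6 weeks on Hba-a1, P374468 and P260346, in 4 of 6 on P374476, P213909 and Alas2, and in 3 of 6 on Slc4a1.

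Alas2 differed from HFC by -0.05 (HF5, SE 0.54), -0.66 (HF20, SE 0.54) and -0.61 (HF75, SE 0.54). Slc4a1 differed by -0.62 (HF5, SE 0.82), -0.36 (HF20, SE 0.82) and -1.65 (HF75, SE 0.87, without the HF75 W12 array, where it had no value). The mean of the 3 doses minus HFC was -0.30 (SE 0.43) for Hba-a1, -0.44 (SE 0.44) for Alas2 and -0.88 (SE 0.68) for Slc4a1, and 0% of the probes were called (586 with an unadjusted p under 0.05). In the 5 related lists 0 of 55 tested genes passed in any dose comparison. The median over the 4 member genes was 0.09 in HF5, -0.51 in HF20 and -0.47 in HF75, and over all probes it was -0.03, 0.04 and 0.04. The Slc4a1 difference of HF20 was -0.97 without the HF20 W18 array, and that of HF5 was -1.30 without HF5 W12. With the dose taken from the diet label, HF5 minus HFC was 0.36 for Slc4a1 and 0.14 for Alas2, so both signs turned.

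**Figure D3:**
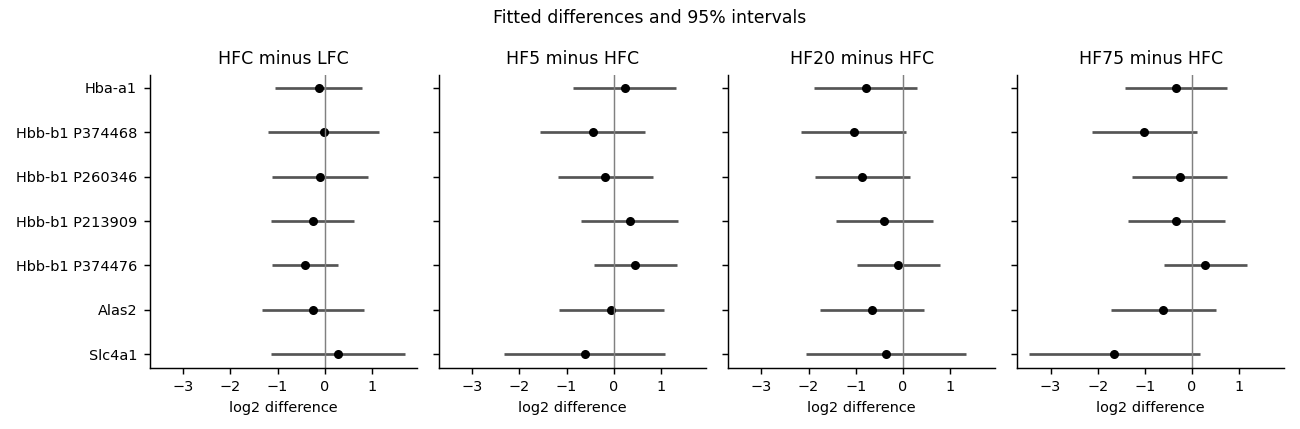
Fitted differences (log2, x axis) of the 7 member probes with their 95% intervals (bars) for HFC minus LFC over 10 time points and for each dose minus HFC over 6 weeks. All 28 intervals include 0, and the widest is that of Slc4a1 in HF75, from -3.45 to 0.16.

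Over the whole course no member had a trend that passed the test. The slope per week within diets was -0.07 for Alas2 (SE 0.05, adjusted p = 0.498), -0.03 for Hba-a1 (SE 0.04), -0.02 for Slc4a1 (SE 0.05) and between -0.04 and -0.02 for the Hbb-b1 probes (limma), beside 0.944% of 33690 probes called. The first 2 time points carried these signs: without D6 and D10 the slopes were 0.01 for Alas2 and 0.02 to 0.04 for Hba-a1, Hbb-b1 and Slc4a1. In the related lists 1 of 56 tested genes passed, Bpgm, which makes the regulator of haemoglobin's oxygen affinity and fell by 0.081 per week (SE 0.020, adjusted p = 0.0375, limma). Bpgm was highest on LFC D6 (3.43, beside a median of 0.53), and its slope without D6 and D10 is not given here.

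The 6 weeks from W3 to W18, in contrast, differed from each other for every member. The test of differences between weeks, with diet in the fit, passed for all 7 probes (4 of 4 genes). Its spread is that between arrays of different diets in the same week. The adjusted p (limma) was 0.0053 for Hba-a1, 0.0024 for Alas2, 0.000195 to 0.0057 for the Hbb-b1 probes and 0.0468 for Slc4a1. Weeks differed for many genes in these data: 39.3% of the 33711 probes were called in the same test. The members' F values had a median of 6.52 over the 4 genes, beside 2.76 over all probes.

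Alas2 at W15 was -1.26 in LFC, -2.10 in HFC, -1.77 in HF5, -0.64 in HF20 and -0.72 in HF75. At W18 it was 2.41 in LFC, 3.74 in HFC, 1.49 in HF5, 1.53 in HF20 and 1.85 in HF75. Every W18 array was above every W15 array, and the week means lay 3.50 log2 units apart. The weeks in between in level were W3 (0.19 ± 0.90, SD, n = 5 diets), W6 (0.47 ± 1.25), W12 (0.57 ± 1.15) and W9 (1.39 ± 0.54). Neighbours in this order up to W18 (2.21 ± 0.94) differed by less than the larger of their SDs, while W15 (-1.30 ± 0.64) lay below W3 by more than either SD.

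Hbb-b1 P374468 at W15 was 1.13 in LFC, -0.18 in HFC, 0.23 in HF5, 1.31 in HF20 and 1.83 in HF75. At W18 it was 5.77, 6.31, 3.90, 3.51 and 3.67 in the same order of diets. The W9 arrays lay close together at a high level, from 3.97 to 5.14, while W3 ran from 0.05 to 3.16. W18 and W9 had the 2 highest week means in 6 of the 7 probes, Slc4a1 being the exception.

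Hba-a1 at W15 was 3.40 in LFC, 2.40 in HFC, 2.75 in HF5, 3.93 in HF20 and 4.34 in HF75. At W18 it was 6.16, 6.93 (saturated), 5.51, 5.57 and 5.46. The week means were 2.56 log2 units apart, which is a lower bound because of the saturated spot. Slc4a1 at W15 was -4.62, -4.91, -4.44, -2.91 and -3.62, and at W18 -0.43, -0.27, -2.08, 2.26 and -2.61, so its W18 arrays were above its W15 arrays by only 0.29 at the nearest pair.

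W15 had the lowest and W18 the highest week mean of all 7 probes, and for all 7 every W18 array was above every W15 array, beside 2.85% of all tested probes with that order and 0.845% with the opposite one. This pair of weeks was chosen after the levels had been seen, and the 7 probes were read on the same 10 arrays, so the count is a description. In bulk RNA, fewer erythroid cells and less of these messages per cell cannot be told apart.

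**Figure D4:**
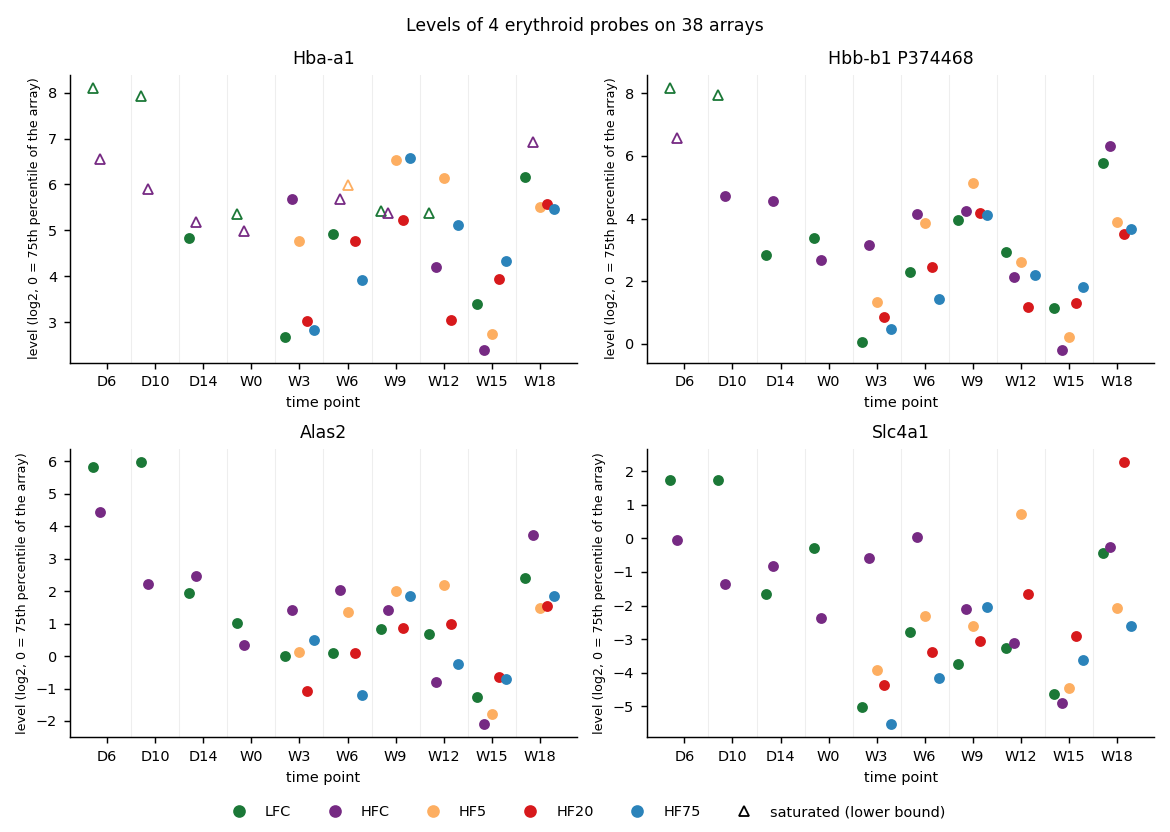
Level (log2, 0 = 75th percentile of the array) of Hba-a1, Hbb-b1 P374468, Alas2 and Slc4a1 on all 38 arrays by time point (x axis, not to scale in days), coloured by diet, with saturated spots as open triangles. The 5 arrays of W15 lie below the 5 of W18 in each panel, and LFC D6 and LFC D10 are at the top except in Slc4a1, where HF20 W18 is highest at 2.26.

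The call for Slc4a1 depended on single weeks and arrays: its adjusted p was 0.102 without the HF20 W18 array, between 0.0148 and 0.193 when 1 week was left out, and 0.0911 with quantile scaling (limma). With background correction by normexp in place of the processed signal, the adjusted p was 0.0076 for Alas2, 0.111 for Hba-a1, 0.144 for Hbb-b1 and 0.194 for Slc4a1, while the count of all probes called was 1612. Scan day and array brightness moved with the weeks. All 5 W15 arrays were scanned on 1 day and were brighter, at 10.25 to 10.45 log2 scanner units, than all 5 W18 arrays, at 7.84 to 10.12. With brightness as a covariate, added after the data had been seen, the adjusted p was 0.0025 for Alas2, 0.0064 for Hba-a1, 0.0057 for Hbb-b1 and 0.0643 for Slc4a1 (limma). No scan day was shared between weeks, so differences between weeks cannot be told apart from differences between scan days.

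Of 55 tested genes of the 5 related lists 16 (29.1%) differed between weeks, beside the 39.3% of all probes. In haem synthesis 4 of 11 passed, led by Fech (adjusted p = 0.0036) and including Slc25a37, the mitochondrial iron importer of erythroid cells. In membrane and skeleton 3 of 12 tested passed (Spnb1, Gypc, Xk), and among regulators 4 of 11 (Epor, Gfi1b, Gata1, Zfpm1). Among late red cell genes 5 of 18 passed, with Pklr, the pyruvate kinase of red cells, at an adjusted p of 3.13e-05 (limma). Other globins and the globin chaperone gave 0 of 3, with Hbb-y at 0.348, Hbb-bh1 at 0.326 and Eraf at 0.111 (adjusted p, limma). All 6 T cell and all 5 B cell genes passed in the same test, and 5 of 12 macrophage, 4 of 12 neutrophil, 2 of 11 platelet, 4 of 7 endothelial, 5 of 9 adipocyte, 5 of 13 haem handling and 3 of 8 precursor genes.

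The members moved together from array to array. Over 37 or 38 arrays, the 6 pairs of the 4 genes had Spearman's rho from 0.675 (Hbb-b1 and Slc4a1) to 0.903 (Hba-a1 and Hbb-b1) and Pearson's r from 0.690 to 0.918. Each pair had a permutation p of 1e-05, the smallest that 100000 permutations can give, and the same value after Benjamini-Hochberg adjustment over the 6 pairs. Within time points rho was 0.507 (Hbb-b1 and Slc4a1, permutation p = 0.00176) to 0.827. Without the 2 arrays farthest from the median of the first gene of a pair (LFC D6 with HFC W15, or LFC D6 with LFC D10), r was 0.589 to 0.894. On arrays where neither probe was saturated rho was 0.645 (18 arrays, permutation p = 0.00446) to 0.922. Alas2 and Slc4a1, which never saturated, had rho 0.859 over 37 arrays and 0.701 within time points.

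The genes whose pattern over the 38 arrays was most like the mean of the 4 member genes were ranked by Spearman's rho among 20957 genes well above background on at least 19 arrays. The first was Gm5226, an annotated predicted gene, with rho 0.913. Its probe is shown because it resembles the α-globin message, with 45 of 55 aligned bases identical to the Hba-a1 probe and the longest shared run of 18 bases in capitals.
Gm5226: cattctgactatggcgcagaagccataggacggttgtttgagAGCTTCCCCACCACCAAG

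Apol11b followed at 0.875, then Eraf at 0.809 and Slc25a37 at 0.710. Also among the first 10 were Gm6235 (0.686), Tubb3 (0.672), Nfe2 (0.656), LOC100048146 (0.656) and E2f2 (0.650). Of those named, Eraf, Slc25a37 and Nfe2, an activator of globin genes, belong to the related lists. Within time points the rho of Gm5226 was 0.820, of Eraf 0.707, of Slc25a37 0.707 and of Tubb3 0.327. The 48 genes of the related lists that could be ranked had a median rho of 0.137, beside 0.042 over all 20957 genes, so likeness was held by a few of them. Gata1 was at 0.310, Epor at 0.267, Tfrc at 0.122 and Fech at 0.009. These values are descriptions, since all genes share the arrays and their brightness.

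The mean levels of marker lists of other cell types also varied along these arrays. The mean of each related erythroid list had rho with the member pattern of 0.716 (other globins and chaperone, 5 genes), 0.637 (regulators, 11 genes), 0.362 (membrane and skeleton, 17 genes, and late red cell genes, 18 genes) and 0.237 (haem synthesis, 11 genes). The lists of other cells had rho of 0.473 (platelet, 11 genes), 0.446 (haem and iron handling, 13 genes), 0.417 (adipocyte, 9 genes), 0.397 (marrow and spleen precursors, 8 genes), 0.349 (neutrophil, 12 genes), 0.302 (macrophage, 12 genes), 0.212 (endothelial, 7 genes, and T cell, 6 genes) and 0.190 (B cell, 5 genes). Array brightness had rho -0.411. Platelet means ran from -3.44 to -2.51 at W15 and from -3.19 to -1.60 at W18, and the neutrophil means from -3.39 to -0.26 and from -1.26 to 0.89. The platelet chemokine Pf4 was well above background on all 38 arrays, with rho 0.076, and the neutrophil gene S100a8 on all 38, with rho 0.389. The part of these lists, and of brightness, in the members' pattern was not tested.

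Of the 11 regulators 9, and of the 17 membrane and skeleton genes 9, were well above background on at least 19 of the 38 arrays, among them the regulators Tal1 (38 arrays) and Nfe2 (34) and the membrane genes Ank1 and Gypc (38 each). Others were measured on few arrays. Epb4.2 (a partner of band 3) was well above background on 8 of 38 arrays, Spna1 (erythroid spectrin) on 8, Rhag on 6, Klf1 on 17, and Hemgn on 14. Gata1 was so on 21 and Epor on 37. Median levels ran from -8.18 (Rhag) to 4.88 (Aqp1, a water channel also of other cells) over the 2 lists. Among other globins, the embryonic genes Hba-x, Hbb-bh1 and Hbb-y were well above background on 1, 11 and 30 arrays, and no probe carried the names Hba-a2 or Ahsp.

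HF20 W18 was high in many of the rarely measured genes. It had Slc4a1 at 2.26, close to the next highest array, LFC D10 (1.74), and against -1.67 on the next HF20 array. Hba-a1 (5.57), Hbb-b1 P374468 (3.51) and Alas2 (1.53) ranked 13, 17 and 14 of 38. HF20 W18 had Eraf at 1.38 (next highest array -0.56), Hemgn at 0.77 (next -2.64), Klf1 at -0.89 (next -2.50), Kel at -0.69 (next -2.72) and Rhd at -1.58 (next -3.49). It was the highest of all arrays for 5 of 17 membrane and skeleton genes, 4 of 11 regulators, 2 of 18 late red cell genes, 1 of 11 haem synthesis genes and 1 of 5 other globins and chaperone, beside 1.2% of all 33711 probes. Gata1 ranked second there, at -2.55. The array was also the highest for 5 of 12 neutrophil genes, among them S100a8 (3.77), Camp (2.27), Ngp (1.73) and Mpo (1.82), and for 0 of 12 macrophage, 0 of 11 platelet, 0 of 8 precursor-list and 1 of 6 T cell genes. These counts take first places only. On HF20 W18 the platelet genes ranked from 3 (Gp1ba) to 13 (Itgb3) among the arrays. The precursor-list genes ranked from 2 (Ctsg) to 35 (Vpreb1), and the macrophage genes from 3 (Lyz2) to 29 (Fcgr1). This array was singled out after its values were seen, it is 1 array, and its diet label names the 5 µg dose.

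**Figure D5:**
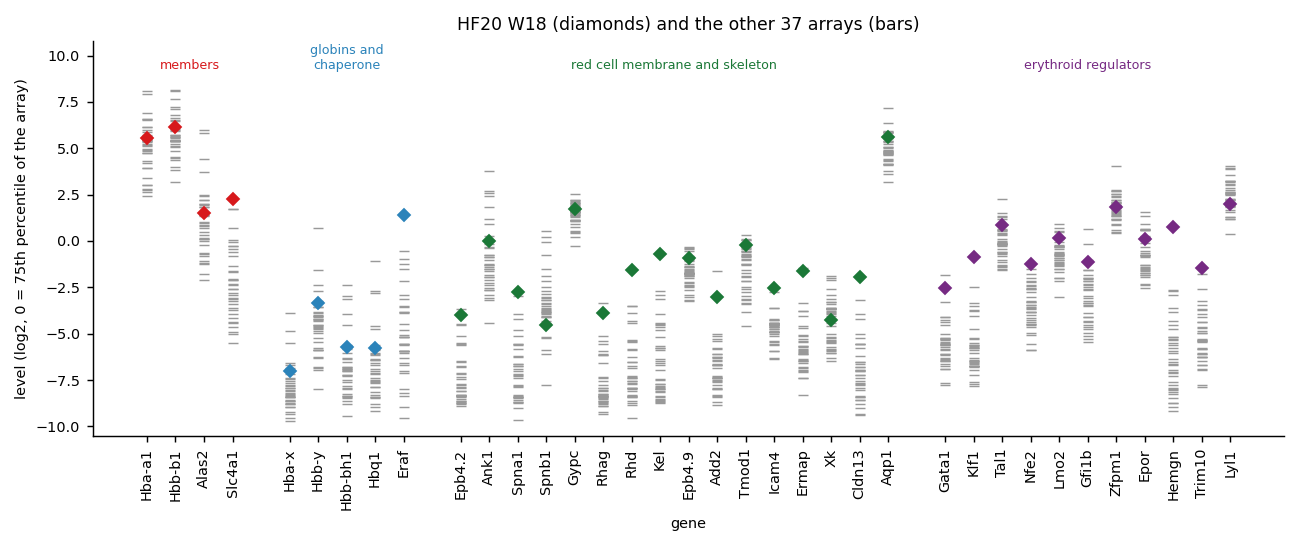
Level (log2, 0 = 75th percentile of the array) of the member genes, other globins and chaperone, 16 membrane and skeleton genes and regulators on HF20 W18 (coloured diamonds) and on each of the other 37 arrays (grey bars). Slc4a1, Eraf, Rhd, Kel, Klf1 and Hemgn are at the top of their range on HF20 W18, while Hba-a1 and Alas2 rank 13 and 14.

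On LFC D6 and LFC D10 the globins and Alas2 were highest. LFC D10 was the highest of all arrays for 6 of 7 endothelial, 3 of 11 platelet, 3 of 18 late red cell and 2 of 11 regulator genes, beside 6.43% of all probes, and LFC D6 for 3 of 18 late red cell genes, beside 2.87%. Hbb-y was at its highest on LFC D10, at 0.70, as was Clec1b, a platelet receptor, at -0.01. Without these 2 arrays rho between member genes was 0.622 to 0.886.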

How the data were processed

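Per the file headers, the deposited scanner files hold intensity values made by Agilent Feature Extraction 10.5.1.1 (processed signal, mean foreground and median background; not normalised between arrays). The authors' series table holds, after a shift by the 75th percentile, log2 ratios against LFC at that time, made with GeneSpring GX per the study's methods (lowest correlation with ratios from the scanner files 0.992), and served as an alternative. The array design names genome build mm9, for which no coordinates are given; promoter coordinates are those of RefSeq GRCm38.p6.

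From 43803 non-control spots, outlier spots were left out, levels were taken as log2 signal minus log2 of the array's 75th percentile, and spots of a probe were averaged. Saturated spots were kept as lower bounds. Probes well above background on a share of 0.5 of the arrays of at least 1 diet were tested with limma 3.58.1 in R 4.3.3, two-sided, Benjamini-Hochberg threshold 0.05 over all probes. Time point was a block in comparisons of diets (arrays were matched by time point, not by replicate number). The fits recovered changes set in simulated data. The simulated noise was independent between arrays and smaller than the SD of any member probe over the 38 arrays. That check therefore does not show which differences of the members could have been detected. A gene is represented by its probe of highest mean level. Named genes are all member probes, a set of erythroid, platelet and neutrophil genes named whatever their values, those of smallest p in the related lists, and the 10 genes most like the members. Members and lists were chosen with earlier results of these data known. RefSeq held the design record of 69.2% of probes. The number of arrays limits the precision. Alternatives were another scaling, background correction, filter or block, the methods' t-test, saturated spots or single time points left out, brightness as a covariate, and dose from the diet label. Some genes of the lists count in the totals but are not reported here by name.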

Additional observations from a re-analysis of the deposited data

Results flagged for a closer look

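Within each diet, the highest and lowest arrays of the 7 member probes and 18 related genes were compared with their nearest neighbour (Dixon's criterion, 125 groups), and the next array of the same diet is given after each value; 12 gaps were beyond the 95% limit, where chance gives about 1 in 20 groups (6.25). Among the members the criterion was met by Hbb-b1 P374476 on HFC W15, where all members but Slc4a1 were at their lowest. It was at 3.16 there against 5.07 on the next HFC array, W0. That spot was not saturated, but 8 of the 10 HFC spots of this probe were, W0 among them, so the ceiling limits the gap and the range. The least saturated Hbb-b1 probe, P374468, did not meet the criterion there (-0.18, next 2.13). Ank1 was high on LFC W6 (2.70, next -1.63) and on HF75 W3 (3.76, next -0.75), the second dimmest array, on which Hmox1 was low (-2.43, next 1.47). Epb4.2 was high on HF20 W18 (-3.99, next -7.15), along with the genes of the erythroid lists described for that array. Hba-x was high on HF5 W12 (-3.90, next -7.76), the dimmest array, and on HFC W12 (-4.83, next -7.20), which had many outlier spots. Eraf was low on HF75 W6 (-8.22, next -5.94), Fech on HF20 W6 (0.15, next 1.33), Slc40a1 on HFC W6 (-2.28, next -1.30) and S100a8 on LFC W3 (-5.35, next -1.13), and Alas1 was high on HFC W9 (3.88, next 2.96).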

How the results depend on the processing

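No diet or dose comparison and no change of HFC minus LFC with time called a probe under any alternative run, and no member passed in them. Their signs were not stable. HFC minus LFC turned with quantile scaling (Hba-a1 0.33, Hbb-b1 0.16), normexp (Hba-a1 0.094, Slc4a1 -0.27), saturated spots left out (Hba-a1 1.01, from W3 and W15 alone), slide as a random block (Alas2 0.081, Hba-a1 0.15), brightness as a covariate (Alas2 0.14, Hbb-b1 0.023, Hba-a1 0.13) and without D6 and D10 (Alas2 0.35, Hba-a1 0.29, chosen after seeing the data). Its change per week turned with quantile scaling (Hbb-b1 -0.049, Hba-a1 -0.052), saturated spots left out (Hba-a1 -0.33, again from W3 and W15 alone), slide (Hbb-b1 -0.0041) and without D6 and D10 (Slc4a1 -0.046, Alas2 -0.022, Hbb-b1 -0.063, Hba-a1 -0.062). Dose comparisons turned with quantile scaling (mean of doses, Hbb-b1 -0.0078), normexp (HF5: Hbb-b1 -0.42, Hba-a1 -0.63; HF20: Slc4a1 0.64; mean: Hbb-b1 -0.19), saturated spots left out (HF20, Hbb-b1 0.58), scan day as the block (HF20, Hbb-b1 0.0086; HF75, Hba-a1 0.18) and the diet label (HF5: Slc4a1 0.36, Alas2 0.14). Slopes turned with saturated spots left out (Hbb-b1 0.019, Hba-a1 0.028) and without D6 and D10 (Slc4a1 0.045, Alas2 0.0057, Hbb-b1 0.024, Hba-a1 0.024). With no replicate block, HFC minus LFC stayed at -0.24 for Alas2 (adjusted p = 0.968, limma), and the block changed no other call. The methods' t-test, HFC against LFC, had 2837 probes at an unadjusted p under 0.05 and 0 after adjustment.

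With 1 time point left out, HFC minus LFC ran from -0.48 to 0.15 (Alas2), -0.48 to 0.086 (Hba-a1) and -0.18 to 0.65 (Slc4a1), and its change per week from -0.013 to 0.049 (Hba-a1) and -0.022 to 0.032 (Hbb-b1). HF5 minus HFC ran from -0.66 to 0.39 (Alas2) and -0.11 to 0.56 (Hba-a1), HF20 from -0.46 to 0.21 (Hbb-b1) and -0.94 to 0.32 (Slc4a1), HF75 from -0.80 to 0.16 (Hba-a1) and -0.10 to 0.57 (Hbb-b1), and the mean of doses from -0.61 to 0.070 (Hba-a1) and -0.050 to 0.44 (Hbb-b1). Slopes ran from -0.10 to 0.027 (Hba-a1), -0.097 to 0.026 (Hbb-b1) and -0.14 to 0.043 (Slc4a1). Probes called for a slope numbered 17 (normexp), 129 (well above background on every array), 157 (slide) and 56 (without W15) to 432, and for differences between weeks 1612 (normexp), 4186 (well above background on every array) and 4514 (without W6) to 12291; the cause was not tested. Alas2, Hba-a1 and Hbb-b1 kept their call between weeks in all of these but normexp, where Alas2 alone passed, and Slc4a1 lost it with quantile scaling (0.0911), normexp (0.194), brightness (0.0643), without HF20 W18 (0.102) and without W3, W6, W9, W15 or W18 (adjusted p of 0.0546 to 0.193). Leaving out HF20 W18 or HF5 W12, brightness between weeks, and correlations on unsaturated arrays or without LFC D6 and LFC D10 were also chosen after seeing the data. Slc4a1 could not be tested where every array had to be well above background in dose, week and slope fits, and Hbb-b1 had no change with time once saturated spots were left out. All 6 correlations between members passed under every alternative.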
